A study of Mus musculus with 4 samples.

Results

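Transforming growth factor beta (TGF-beta) genes were followed in macrophages sorted from mouse mammary glands, with and without tumors, and with and without the transcription factor gene Ets2. The 10 genes were taken by symbol from the annotation of the array's probe sets: the ligands Tgfb1, Tgfb2, Tgfb3 and Inhba, the receptors Tgfbr1 and Tgfbr2, the signal regulators Smad7, Skil and Tgif1, and the target Tgfbi. They are 10 of 12393 genes measured and are covered by 20 of the 22690 probe sets. An Affymetrix probe set is a group of short probes that are read together as 1 value.

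Each of 4 groups had 1 array. Both remodeling groups came from mammary glands of mice without tumor, 1 from females wild type for Ets2 and 1 from females with both Ets2 copies deleted in macrophages. Both tumor groups came from early-stage mammary tumors induced by PyMT, the polyoma middle T oncogene, a mouse model of breast cancer. In the tumor control 1 copy of Ets2 remained per its source label, although its title calls it wild type, and in the other tumor group both copies were deleted. By that label the Ets2 difference of each setting starts from an unlike control. The remodeling and tumor controls then differ in Ets2 copies as well as in setting. All mice expressed YFP in their macrophages, and YFP-positive cells were sorted. The labels give neither the mice's ages, nor the Cre that removed Ets2, nor the number of mice behind each RNA sample. Wherever 4 values follow one another, the 2 remodeling arrays come before the 2 tumor arrays, and in each pair the Ets2-expressing array comes before the Ets2-deficient one.

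TGF-beta ligands are secreted in a latent form, released by integrins or proteases, and bind a complex of the type II receptor (Tgfbr2) and the type I receptor (Tgfbr1). The receptors phosphorylate Smad proteins, which enter the nucleus and switch target genes, among them genes such as Smad7 and Skil whose products restrain the pathway. In tumors and in healing or remodeling tissue, macrophages are a known source of TGF-beta1, while stromal and epithelial cells make other isoforms.

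All values are log2 expression, so 1 unit is a 2-fold difference. With 1 array per group there was no replicate check and no test was run, and "higher" or "lower" means on these arrays. To be counted, a difference needed 1 of its arrays to reach that array's median over all probe sets (6.17, 5.98, 6.22 and 6.30); counted differences of at least 2-fold are called. Values at or below an array's 25th percentile (4.27, 4.29, 4.32 and 4.29) are described as at background. The 1 measure of error was the standard deviation between the differences of bright probe sets of the same gene. Pooled over genes it was 0.34 in the tumor Ets2 comparison, 0.28 in the remodeling Ets2 comparison, 0.41 in tumor minus remodeling with Ets2 and 0.32 without it. It leaves out mice, sorts and amplification. The Ets2 probe set was bright on all 4 arrays (13.24, 12.97, 12.77 and 12.67). As the labels do not name the deleted exons, it could not be used to check the deletion. Control probe sets at the 3' end of Actb read above those at its 5' end, a sign of RNA or cDNA shortening, by 2.72, 2.96, 3.30 and 3.54. For Gapdh this was 1.61, 1.80, 2.45 and 2.27, also larger on the tumor arrays, whereas for Tfrc it was 5.75, 5.96, 5.03 and 5.27, smaller there. Its part in the differences below was not tested.

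The 2 genes called with the Ets2 label were the ligands Tgfb2 and Tgfb3, while Tgfb1, both receptors and Tgfbi, read by their brightest probe sets, stayed within 2-fold in both Ets2 comparisons. Tgfb2 was 3.08-fold higher in tumor macrophages and 3.61-fold lower in remodeling macrophages on the array labelled Ets2-deficient, by its brightest probe set. With the mean of its 3 probe sets neither difference passed 2-fold (0.82 and -0.98). Tgfb3 was 2.16-fold higher in tumor macrophages on that array. Smad7, at 1.97-fold higher on the same array, was just under the 2-fold limit. Between settings, Tgfb3 was higher in tumor macrophages with either Ets2 label, and Tgfbr1 was higher past 2-fold in the Ets2-expressing pair. In bulk samples such as these, fewer cells of a type and less RNA per cell cannot be told apart, and markers of other cell types that differed between the same arrays are given at the end.

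**Figure D1:**
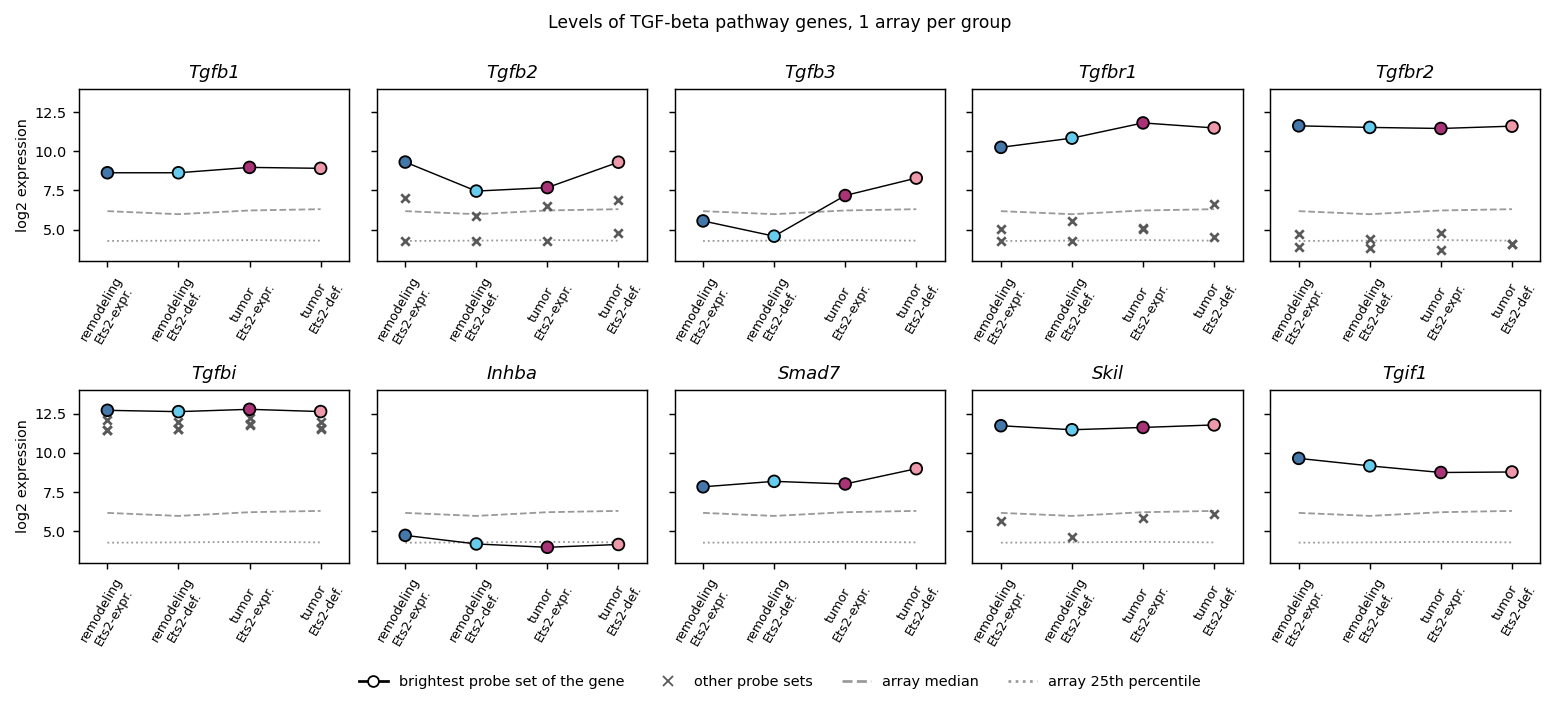
Log2 expression of the 10 genes on the 4 arrays, 1 array per group. Filled points joined by a line to guide the eye are the brightest probe set of each gene, crosses are its other probe sets, and dashed and dotted lines are the array's median and 25th percentile. Tgfb2 is high on the first and last array, Tgfb3 is higher on both tumor arrays, and Inhba stays below the median on all 4.

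Tgfb1, the isoform best known from macrophages and other immune cells, read 8.62, 8.62, 8.97 and 8.91 by its 1 probe set. It was nearly level over the 4 arrays. The Ets2 differences were -0.06 in tumor and 0 in remodeling macrophages. Both tumor arrays were above both remodeling arrays, by 0.34 with Ets2 and 0.28 without it. These differences are smaller than the pooled spread between probe sets, and that without Ets2 was -0.04 after centring each array on its median.

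Tgfb2, an isoform made by many stromal and epithelial cells and needed for organ development, read 9.31, 7.45, 7.68 and 9.30 by its brightest probe set. It was high on the remodeling Ets2-expressing and the tumor Ets2-deficient array and low on the others. The Ets2 difference was 1.62 in tumor macrophages, the 31st highest of 7225 counted genes, and -1.85 in remodeling macrophages, the 174th lowest of 7095. Tumor minus remodeling was -1.63 with Ets2 and 1.84 without it. The difference of the 2 Ets2 differences was 3.47, a value with no replicate error and, by the source label, with unlike Ets2 copies in the 2 controls.

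The other Tgfb2 probe sets gave smaller differences. The second read 6.98, 5.86, 6.52 and 6.89, so the remodeling Ets2-deficient array was again the dimmest, at -1.12 from its control. In tumor macrophages its Ets2 difference was 0.36, under 2-fold. The third read 4.25, 4.27, 4.27 and 4.75, at background on the first 3 arrays. All 3 are listed under the same cDNA clone, so the annotation does not say which isoforms or ends they read.

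The upstream sequences of Tgfb2 and Tgfb1 are shown since 1 of these ligands differed with the Ets2 label and the other did not, and that of Tgfbr1 since it was called between settings. Each is the 250 bases before an annotated start, from RefSeq on GRCm38.p6. Windows on 1 chromosome were left out for the 10 genes, though not for the shares over all windows given below. The windows kept covered 7 of the 10 genes (Tgfb1, Tgfb2, Tgfbr1, Tgfbr2, Inhba, Tgfbi and Tgif1, with several starts for Tgfbr1 and Tgif1). A gene without a window here may therefore still have 1 in RefSeq. Capitals mark matches on either strand to 7 motifs: CCGGAA and AGGAAG (ETS factors), CAGACA (Smads), GACGTC (the core of the cyclic AMP response element), TGACTCA (AP-1), CACGTG (the E-box of bHLH factors) and TATAAA (the TATA box). The motifs do not overlap one another in these windows.
Tgfb2, chr1:186705990-186706239, minus strand: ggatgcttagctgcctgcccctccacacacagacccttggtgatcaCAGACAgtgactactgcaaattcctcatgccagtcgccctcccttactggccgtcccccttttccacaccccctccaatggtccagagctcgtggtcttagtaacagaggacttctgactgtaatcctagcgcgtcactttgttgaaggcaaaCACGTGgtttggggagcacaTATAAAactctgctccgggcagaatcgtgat
Tgfb1, chr7:25686752-25687001, plus strand: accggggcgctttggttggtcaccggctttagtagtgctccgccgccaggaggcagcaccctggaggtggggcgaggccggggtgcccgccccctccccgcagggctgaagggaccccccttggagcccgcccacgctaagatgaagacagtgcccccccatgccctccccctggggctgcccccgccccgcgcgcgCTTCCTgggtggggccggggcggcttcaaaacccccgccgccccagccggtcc
Tgfbr1, chr4:47352972-47353221, plus strand: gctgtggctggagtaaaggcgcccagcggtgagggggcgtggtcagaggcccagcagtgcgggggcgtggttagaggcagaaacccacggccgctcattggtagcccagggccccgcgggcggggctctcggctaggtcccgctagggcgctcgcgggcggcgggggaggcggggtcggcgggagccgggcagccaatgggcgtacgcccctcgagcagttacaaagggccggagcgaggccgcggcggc

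The Tgfb2 window held a TATAAA that begins 31 bases before the start, a CACGTG at 51 bases and a CAGACA at 204 bases. The Tgfb1 window held 1 AGGAAG, on the opposite strand, and the Tgfbr1 window shown none of the 7 motifs. The window of the other annotated Tgfbr1 start, not shown, held an AGGAAG at 94 bases and a CAGACA at 203 bases. Of 32851 windows of this length in the table, 12.4% held TATAAA, 6.02% CACGTG, 17.1% CAGACA, 29.5% AGGAAG, 12% CCGGAA, 4.46% TGACTCA and 3.77% GACGTC. The windows also differed in base composition, with 53.6% G and C for Tgfb2 against 75.2% for Tgfb1 and 74.8% for Tgfbr1. A match describes the letters only.

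Tgfb3, an isoform made by mammary epithelium and by fibroblasts and known for its part in gland involution and palate closure, read 5.55, 4.57, 7.17 and 8.28 by its 1 probe set. Both tumor arrays were above both remodeling arrays, which lay below their medians. Tumor minus remodeling was 1.62 with Ets2 and 3.71 without it, the latter 13.1-fold and the 58th highest of 7203 counted genes. Its remodeling reading of 4.57 lies near background, so this fold and rank are not exact. The Ets2 difference in tumor macrophages was 1.11. In remodeling macrophages it was -0.97, but both arrays were too dim to count. The difference of the 2 Ets2 differences was 2.085, as for Tgfb2 with opposite signs in tumor and remodeling macrophages, and it rests on the same dim reading.

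Inhba, whose product forms activin A, a TGF-beta family ligand with its own receptors, read 4.74, 4.19, 3.98 and 4.15. It was below the array median everywhere and at background on all but the remodeling Ets2-expressing array. No difference of this gene was counted.

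Tgfbr1, the type I receptor kinase, read 10.25, 10.84, 11.81 and 11.48 by its brightest probe set. Both tumor arrays were above both remodeling arrays. With Ets2 the difference was 1.56, or 2.95-fold and the 178th highest of 7253 counted genes, and without it 0.65. The Ets2 difference was 0.59 in remodeling macrophages and -0.32 in tumor macrophages, neither past 2-fold. A second probe set read 5.04, 5.55, 5.07 and 6.62, above the median on the last array alone, where it stood 1.55 over the tumor control. The remaining probe set was dim on all 4 arrays (4.25, 4.27, 5.06 and 4.50). The mean of the 3 gave 0.80 for tumor minus remodeling with Ets2, under 2-fold.

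Tgfbr2, the type II receptor that binds the ligand, read 11.62, 11.52, 11.45 and 11.60. Its 4 arrays lay within a range of 0.17, the narrowest among the 10 genes after Tgfbi. Its differences ran from -0.17 to 0.15 over the 4 comparisons. Its 2 other probe sets were below the median on every array.

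Smad7, the inhibitory Smad that blocks the type I receptor, read 7.84, 8.19, 8.02 and 8.99. The tumor Ets2-deficient array stood apart from the other 3. The Ets2 difference in tumor macrophages was 0.98, or 1.97-fold, just under the 2-fold limit, and 1.03 after centring on the hybridization controls. In remodeling macrophages it was 0.35. Tumor minus remodeling was 0.18 with Ets2 and 0.81 without it.

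Skil, which encodes the Smad-binding repressor SnoN, read 11.74, 11.48, 11.63 and 11.79, nearly level. Its second probe set, below the median on all arrays, read 5.65, 4.65, 5.85 and 6.10. For both, the remodeling Ets2-deficient array was the lowest, with a difference from its control of -0.26 for the bright and -1.0 for the dim probe set.

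Tgif1, a homeobox repressor that binds Smads, read 9.65, 9.17, 8.75 and 8.78. Both remodeling arrays were above both tumor arrays. Tumor minus remodeling was -0.90 with Ets2 and -0.39 without it, neither past 2-fold. The Ets2 difference was 0.03 in tumor and -0.48 in remodeling macrophages.

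Tgfbi, a secreted matrix protein named for its induction by TGF-beta, read 12.72, 12.64, 12.79 and 12.64. It was nearly level, and all 4 of its probe sets were bright on every array. Their differences ran from -0.27 to 0.36 over the 4 comparisons, all under 2-fold.

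As a group, 8 of the 10 genes were at or above the median on all 4 arrays by their brightest probe set, Tgfb3 on the 2 tumor arrays only, and Inhba on none. In the tumor Ets2 comparison 2 of 9 counted genes passed 2-fold, both higher (Tgfb2 and Tgfb3), against 2.99% of all counted genes (2.23% higher and 0.761% lower). In the remodeling Ets2 comparison 1 of 8 did, lower (Tgfb2), against 6.48% (1.31% higher and 5.17% lower). For tumor minus remodeling 3 of 9 did with Ets2 (Tgfb3 and Tgfbr1 higher, Tgfb2 lower), against 11.4% (6.18% higher and 5.2% lower). Without Ets2, 2 of 9 did (Tgfb2 and Tgfb3 higher), against 9.22% (7.61% higher and 1.61% lower). With so few genes, each of these counts rests on 1 to 3 of the genes Tgfb2, Tgfb3 and Tgfbr1. The 10 genes were also chosen with earlier results of these data known.

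The median differences of the 10 genes were 0.15, -0.18, -0.02 and 0.30 in the order of comparisons just given, beside 0, 0.04, 0.08 and 0.01 for all 12393 genes. The 4 comparisons share arrays: Ets2 and setting differences of a gene are tied, so a low remodeling Ets2-deficient array alone lowers 1 comparison and raises another.

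**Figure D2:**
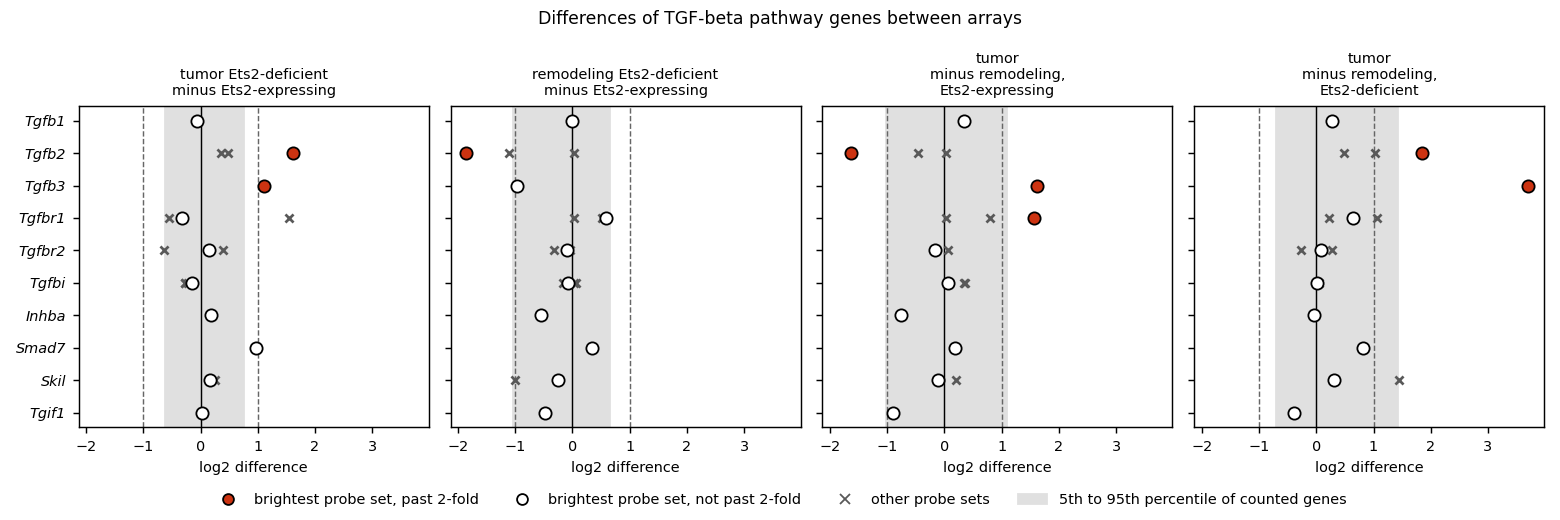
Log2 differences of the 10 genes in the 4 comparisons, 1 array per group. Filled points are brightest probe sets that were counted and past 2-fold, open points those that were not, crosses are other probe sets, dashed lines mark 2-fold, and the grey band spans the 5th to 95th percentile of counted genes. Tgfb2 lies outside the band in all 4 panels and its other probe sets lie nearer to 0, whereas Tgfbr2 and Tgfbi stay close to 0.

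Other genes of the pathway were read from lists by role: ligands and antagonists, receptors, latency and activation, Smads and regulators, and transcriptional targets, 90 measured genes in all. The lists were chosen with earlier results of these data known and include some fibroblast markers. The counts below therefore describe the lists and are not independent evidence about the pathway. In the remodeling Ets2 comparison 17 of 54 counted genes were lower past 2-fold and 0 higher, where 5.17% of all counted genes were lower. For tumor minus remodeling without Ets2, 15 of 55 were higher and 1 lower, where 7.61% of all were higher and 1.61% lower. With Ets2, 4 were higher and 8 lower of 55, where 6.18% and 5.2% of all were. In the tumor Ets2 comparison 4 of 54 were higher and 0 lower, against 2.23% higher. The medians of the 90 genes in the tumor and remodeling Ets2 comparisons and in tumor minus remodeling with and without Ets2 were 0.07, -0.14, -0.11 and 0.14. How many of all called genes were higher moved with the scaling: from 20.2% to 39.5% in the remodeling Ets2 comparison, from 74.5% to 58.1% in the tumor one and from 82.5% to 50.8% in tumor minus remodeling without Ets2 after centring each array on its median.

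Among 19 other ligands and antagonists, 3 were lower past 2-fold in the remodeling Ets2 comparison and 1 was higher in the tumor one. Fstl1, a secreted follistatin-like glycoprotein, read 11.12, 8.29, 9.52 and 9.74, lowest on the remodeling Ets2-deficient array. Its second probe set gave -3.32 against -2.83 for that difference. Inhbb, the subunit of activin B, read 6.38, 4.89, 8.46 and 9.11, with both tumor arrays above both remodeling arrays as for Tgfb3. Its second probe set, below the median on all arrays, read 4.14, 4.29, 4.25 and 3.97, without this order. Gdf10, also called BMP3B, read 7.04, 4.27, 4.29 and 4.55, bright on the remodeling Ets2-expressing array alone. Gdf3 read 4.16, 3.78, 4.92 and 6.34 and passed the brightness limit on the tumor Ets2-deficient array alone, 1.42 over its control.

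Of 11 other receptors, Bmpr1a, a type I receptor for bone morphogenetic proteins, was the 1 past 2-fold. It read 7.95, 6.35, 7.05 and 7.31, with a difference of -1.60 in remodeling macrophages between the Ets2-deficient and the control array. Its 3 other probe sets that reached the median on any array lay between -1.06 and -1.97 there.

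Among 16 genes of latency and activation, 4 were lower in the remodeling Ets2 comparison, and 2 were higher in the tumor one. Itgb5, an integrin subunit that pairs with alpha V to release latent TGF-beta, read 8.02, 8.76, 10.65 and 11.11, higher on both tumor arrays. Its 4 probe sets gave 2.18 to 2.77 for that difference with Ets2 and 2.08 to 2.64 without it. Ltbp2, of the latent TGF-beta binding protein family, read 5.01, 4.36, 6.01 and 7.54, and Thbs1, whose product thrombospondin-1 can activate latent TGF-beta, 9.09, 7.34, 5.25 and 6.32. Thbs1 was highest on both remodeling arrays and Ltbp2 on both tumor arrays, and both were higher past 2-fold in the tumor Ets2 comparison (1.54 for Ltbp2 and 1.07 for Thbs1, whose brighter array was just over the array median). Plat, the tissue plasminogen activator, read 6.67, 3.57, 5.46 and 5.22, at background on the remodeling Ets2-deficient array, so its size there is not exact.

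Of 17 Smads and regulators, 13 were at or above the median on all 4 arrays and none was past 2-fold in either Ets2 comparison. Pmepa1, a TGF-beta-induced membrane protein that sequesters Smads, read 10.77, 10.29, 12.77 and 13.13. Both tumor arrays were above both remodeling arrays, by 2.0 with Ets2 and 2.84 without it. Of the Smads that carry the TGF-beta signal, named here for their role, Smad2 read 8.52, 8.14, 8.02 and 7.81 and the shared partner Smad4 10.15, 10.29, 10.30 and 9.98. The brightest probe set of Smad3, at 4.36, 4.48, 4.26 and 4.27, was below the median on all arrays.

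Among 27 other transcriptional targets, 9 were lower past 2-fold in the remodeling Ets2 comparison and 6 higher in tumor minus remodeling without Ets2. Ccn2, the connective tissue growth factor gene, read 7.56, 4.45, 9.40 and 9.38, lowest on the remodeling Ets2-deficient array and highest on both tumor arrays. Timp3, a metalloproteinase inhibitor, read 9.98, 6.81, 7.77 and 7.60, and its relative Timp1 6.53, 4.86, 6.25 and 7.16. The collagen gene Col1a2 read 11.91, 9.76, 10.60 and 11.13. All 4 of these targets were lower past 2-fold in remodeling macrophages on the array labelled Ets2-deficient, and in tumor macrophages none of them passed 2-fold. They were named for the largest called differences, so they do not stand for the list. Of 19 targets counted in the remodeling Ets2 comparison, 9 were lower and 0 higher past 2-fold. Bright targets that stayed level there included Klf10 (0.01), Id2 (0.01), Fn1 (0.01) and Junb (0). Of the 27 targets 3 (Col1a1, Col1a2 and Col3a1) are also fibroblast markers and 2 (Acta2 and Tagln) smooth muscle markers.

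**Figure D3:**
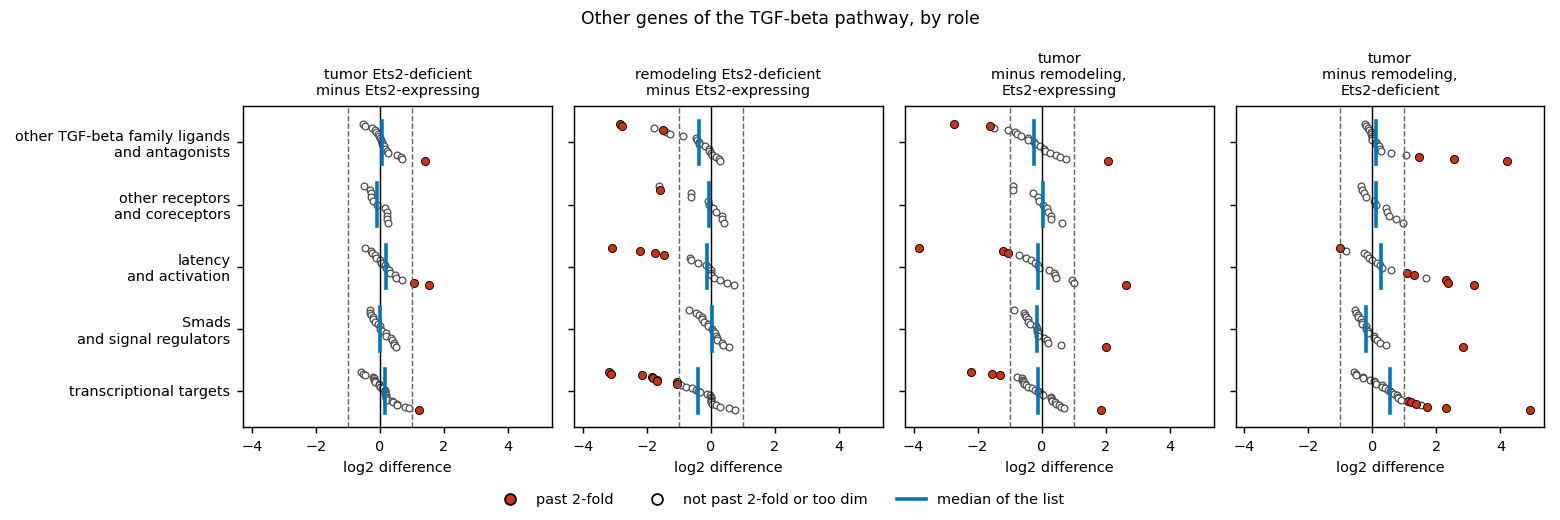
Log2 differences of 90 other pathway genes in the 4 comparisons, by role, 1 array per group. Each point is a gene by its brightest probe set, filled where counted and past 2-fold, the bar is the median of the list, and dashed lines mark 2-fold. In the remodeling Ets2 comparison the filled points lie below 0 only, and in tumor minus remodeling without Ets2 above 0 with 1 exception.

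Markers of other cell types differed between the same arrays. The 12 macrophage markers were bright on all 4 arrays, and none passed 2-fold in any comparison. The log2 of their summed signal was 15.83, 15.79, 15.79 and 15.73. T cell transcripts were also in the sort: 5 of 7 T and NK cell markers were at or above the median on all arrays, among them Cd3e at 10.72, 10.39, 11.11 and 10.97.

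Fibroblast markers were lowest on the remodeling Ets2-deficient array, as were Tgfb2 and Tgfb3. The log2 of the summed signal of 12 markers was 14.43, 12.62, 13.45 and 13.49. All 11 counted were lower in the remodeling Ets2 comparison and 0 of 10 were past 2-fold in the tumor one. In tumor minus remodeling 6 of 11 were lower with Ets2 (median of the 12 markers -0.99) and 5 of 10 higher without it (median 1.02), in the directions of Tgfb2. Mast cell markers (10.97, 9.02, 9.67 and 9.45 for 8 genes) were lower in 5 of 5 counted cases in remodeling and 0 of 4 in tumor macrophages. In tumor minus remodeling 5 of 5 were lower with Ets2 and 1 of 3 higher without it. The part of these cells in the Tgfb2, Fstl1, Timp3 and Ccn2 differences was not tested.

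Mammary epithelial markers except Cldn4 (4.31, 4.58, 4.40 and 4.75) were higher on both tumor arrays, as were Tgfb3, Inhbb and Ccn2. The summed signal of all 12 epithelial markers was 9.73, 8.84, 13.35 and 14.18. Past 2-fold and higher were 10 of 11 in tumor minus remodeling with Ets2, 11 of 11 without it and 2 of 11 in the tumor Ets2 comparison. In the remodeling Ets2 comparison 3 of 3 were lower. Their part in the Tgfb3 differences was not tested.

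The summed signal of 7 neutrophil markers, 13.72, 13.14, 12.50 and 13.95, was like Tgfb2 higher on the remodeling Ets2-expressing and the tumor Ets2-deficient array. It is carried by the bright S100a8 and S100a9, and not all markers followed it: Ngp read 4.58, 5.49, 4.44 and 6.11 and Camp 4.47, 4.81, 4.64 and 4.92, dim on all arrays and not lower on the remodeling Ets2-deficient one. Higher in the tumor Ets2 comparison were 3 of 4 counted (Cxcr2, S100a8 and S100a9), and 1 of 4 was lower in the remodeling one (Cxcr2). In tumor minus remodeling 3 of 4 were lower with Ets2 and 0 of 4 past 2-fold without it. Cxcr2, the neutrophil chemokine receptor, read 8.21, 7.09, 6.97 and 8.04. The part of neutrophils in the Tgfb2 differences was not tested.

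The remaining lists gave summed signals of 8.98, 7.94, 8.46 and 8.38 (8 endothelial genes, of which Tek alone was counted), 9.35, 9.31, 9.26 and 9.56 (7 smooth muscle and pericyte genes), 11.84, 11.58, 12.32 and 12.18 (7 T and NK cell genes) and 9.16, 9.96, 10.21 and 9.78 (5 B cell genes). None of 4 adipocyte genes was counted in any comparison. At background on all 4 arrays were the mast cell marker Fcer1a, the NK cell marker Ncr1 and the adipocyte markers Cidec and Plin4.

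**Figure D4:**
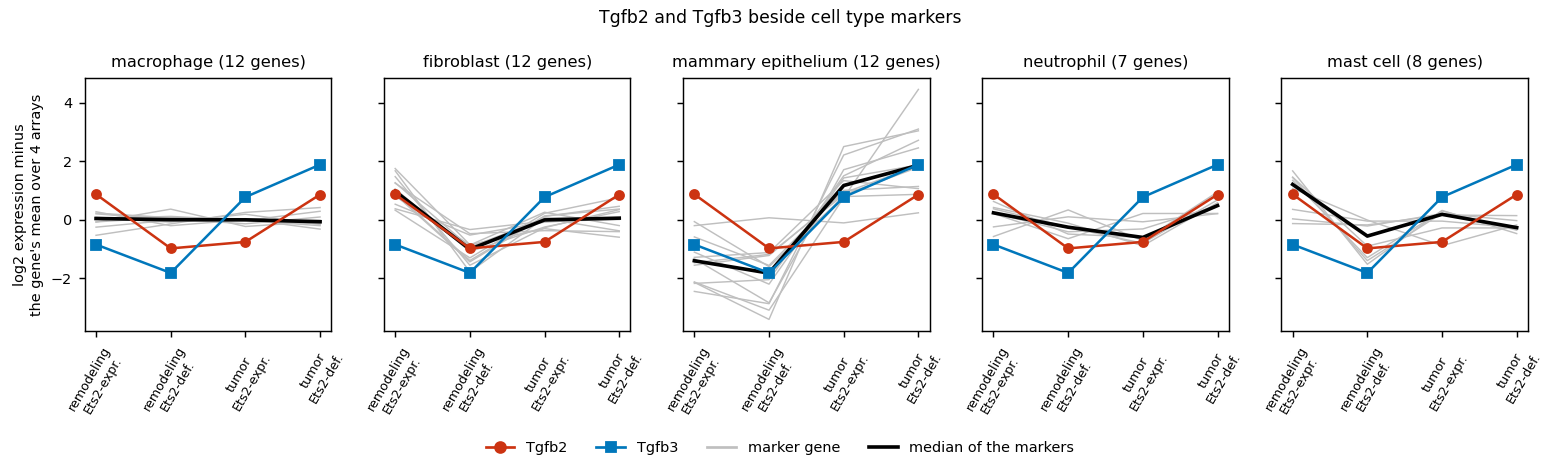
Tgfb2 and Tgfb3 beside markers of 5 cell types, as log2 expression minus each gene's mean over the 4 arrays, 1 array per group. Grey lines are marker genes, the black line their median, and lines only guide the eye. Macrophage markers stay within 2-fold, the epithelial median and Tgfb3 are higher on both tumor arrays, and the neutrophil median and Tgfb2 are both lower on the 2 middle arrays.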

How the data were processed

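The deposited values are log2 expression per probe set as the authors submitted them, for 4 arrays, 1 per group. GCOS and RMA are listed in the submitters' processing notes; versions, order and whether these 4 arrays were normalized alone are not given in the sources used here. Per the labels' protocols, about 10 ng of RNA was amplified as biotin-labelled cDNA (NuGEN Ovation). Values were used as deposited, from 2.75 to 14.9.

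Probe sets were named by the platform annotation where it gives exactly 1 gene (20380; 20351 matched RefSeq by Entrez identifier). A gene is represented by its probe set with the highest mean. Differences were computed in Python 3.11.15 with pandas 2.3.3 and tested on simulated data. The members, lists and motifs were chosen with earlier results of these data known. Named genes are the 10 members and, per pathway list, up to 4 with the largest difference past 2-fold; others named were chosen for their role or after seeing values. Alternatives were median, quantile and hybridization control scaling, the mean of probe sets, other brightness limits and 1.5-fold.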

Additional observations from a re-analysis of the deposited data

Results flagged for a closer look

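Tgfb2 and Tgfb3 are listed because their Ets2 differences had opposite signs in tumor and remodeling macrophages. Each was larger than the pooled spread between bright probe sets, but that spread does not cover the dim Tgfb3 remodeling difference. For Tgfb2 the tumor difference exceeded the remodeling difference by 3.474 log2, from 1.62 and -1.85, by its brightest probe set. Its second probe set gave smaller differences, 0.36 and -1.12. The third, near background, gave 0.48 and 0.02, without opposite signs. For Tgfb3 the tumor difference exceeded the remodeling difference by 2.085 log2, from 1.11 and -0.97. The latter lay between arrays too dim to count, so its size is not exact. With 1 array per group the difference was not tested. By the source labels the remodeling control was wild type and the tumor control kept 1 Ets2 copy.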

How the results depend on the processing

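The number of the 10 genes past 2-fold depended on how a gene was read. With the mean of its probe sets it was 1 in the tumor Ets2 comparison (Tgfb3), 0 in the remodeling one and 1 in tumor minus remodeling with Ets2 (Tgfb3), as the Tgfb2 and Tgfbr1 probe sets disagreed, and the difference of the 2 Ets2 differences of Tgfb2 was 1.80. With the 75th percentile as brightness limit, Tgfb2 alone was called (1) in the tumor Ets2 comparison and in tumor minus remodeling without Ets2. At 1.5-fold the count was 2 in the remodeling Ets2 comparison and 4 in tumor minus remodeling without Ets2. The dimmest probe set of Tgfb2, 1 of those tried after seeing the data, gave 0.02 (0.024) in the remodeling Ets2 comparison and the same in tumor minus remodeling with Ets2, against called values below 0. Under the 3 other scalings every called difference of Tgfb2, Tgfb3 and Tgfbr1 kept its sign and stayed past 2-fold, and Smad7 passed 2-fold in the tumor Ets2 comparison under 1 (hybridization controls). Median centring shifted all genes by 0.19 in the remodeling Ets2 comparison and by -0.32 in tumor minus remodeling without Ets2. Over the 3 scalings, 15 to 16 pathway genes were lower in the former and 11 to 13 higher in the latter. No paired analysis was possible because each group has 1 array and no test was run. Inhba and the dim probe sets lie too near background for their differences to be read.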
